A study of Mus musculus with 8 samples.

Results

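The interferon-stimulated genes are the set that a cell switches on after type I interferon binds its receptor. A list of 32 genes was taken by gene symbol from the table of 15288 genes. It holds such genes and parts of the pathway that leads to them, among them both receptor chains and the adaptor Mavs. All 32 were found in the table and passed the filter on low counts, which 14024 genes passed. Of these 32, 2 encode the receptor chains, 9 encode RNA sensors and proteins that act with them, 6 encode transcription factors and their partners, and 15 encode effectors. RNA was sequenced in bulk from IMCD, a mouse cell line of the inner medullary collecting duct, the last stretch of kidney tubule, where the surrounding fluid can become very salty. The design text asks how these cells respond in their transcripts to hypertonic stress. Both groups were grown to near confluence in DMEM with serum and then kept for 12 h in DMEM without serum. The control group (4 libraries, replicates 1 to 4) received no added salt, and the NaCl group (4 libraries, replicates 5 to 8) received 100 mmol NaCl, for which the labels give no volume. Both groups therefore shared the withdrawal of serum. The cells are 1 line, and the labels name no separate cultures, so the p-values measure the spread between these libraries, which may be technical. The labels number the libraries 1 to 8 and do not say what the number stands for.

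As background, double-stranded or otherwise foreign RNA is bound by helicase sensors such as Ifih1, which signal through the mitochondrial adaptor Mavs to the factors that induce interferon. Interferon then binds the receptor made of Ifnar1 and Ifnar2, and a complex that holds Stat2 and Irf9 carries the signal to a DNA element called the interferon-stimulated response element (ISRE). The genes behind it include the sensors themselves, the factor Irf7, which feeds the response forward, and antiviral effectors, and most cells keep them on at a low level without infection.

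Each control library held 41768063 to 47565623 counts and each NaCl library 35286796 to 42394487. Levels are in CPM, counts scaled to a common library total with TMM factors. Mitochondrial genes took 1.32% to 1.46% of counts in control libraries and 1.39% to 1.65% in NaCl libraries. Of 21 listed markers of collecting duct and epithelium, 20 were analysed, and their summed level was 1125 to 1409 CPM in control and 1283 to 1490 CPM in NaCl libraries. The most abundant of them was the keratin Krt7, while the water channel Aqp2 (mean 0.024 CPM in control, 0.305 CPM in NaCl) and the cadherin Cdh1 (0.195 and 0.535 CPM) were nearly absent. Of 16 listed immune markers 4 were analysed, summing to 13.1 to 17.9 CPM in control and 22.0 to 26.6 CPM in NaCl libraries. Of 13 listed fibroblast and endothelium markers 9 were analysed, summing to 3187 to 3696 CPM in control and 2890 to 3327 CPM in NaCl libraries, most of it the collagen Col1a1. Their part in the results on interferon-stimulated genes was not tested. In bulk RNA, fewer cells of a type and less RNA per cell cannot be told apart.

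The promoters show what these genes share in sequence. RefSeq promoters (GRCm38.p6, from 250 bases before to 50 bases after the start) were matched by symbol for 27 of the 32 genes, leaving Parp9, Parp14, Dhx58, Usp18 and Rtp4. They were searched on both strands for the ISRE core, taken as GAAA followed after any 2 bases by GAAA again, which reads as TTTC and TTTC on the opposite strand. The core was found in 11 of the 27 (40.7%), against 1079 of all 27025 genes with a promoter in the reference (3.99%) and 388 of the 10659 tested genes with one (3.64%). It was present in 6 of 11 effectors, 4 of 8 sensors, 1 of 6 factors and neither receptor chain. A second motif, the gamma-activated site TTCNNNGAA, which can share letters with the first, was found in 9 of the 27 (33.3%), against 9.55% of all genes. The 9 genes with a core before the start are given here in windows of 30 bases, 5' to 3' on the gene's own strand, with bases that belong to a complete core in capitals. Runs of capitals longer than the core are overlapping matches.
Isg15, chr4:156200871-156200900, minus strand: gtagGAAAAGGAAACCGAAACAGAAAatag
Oas1a, chr5:120907523-120907552, minus strand: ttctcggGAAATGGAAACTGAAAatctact
Ddx60, chr8:61928024-61928053, plus strand: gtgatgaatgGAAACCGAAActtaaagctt
Bst2, chr8:71537580-71537609, minus strand: attccagGAAAATGAAACTGAAAggctgca
Stat2, chr10:128270266-128270295, plus strand: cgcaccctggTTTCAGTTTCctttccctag
Slfn8, chr11:83020839-83020868, minus strand: atttgagcagTTTCGTTTTCcccaaaagca
Rsad2, chr12:26456553-26456582, minus strand: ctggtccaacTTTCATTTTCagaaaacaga
Ifit3, chr19:34583363-34583392, plus strand: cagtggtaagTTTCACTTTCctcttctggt
Ifit1, chr19:34640775-34640804, plus strand: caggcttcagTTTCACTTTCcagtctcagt
The same 10-letter run, TTTCACTTTC, occurs in the windows of Ifit1 and Ifit3, which lie 57.3 kb apart on chromosome 19 on the same strand. In Isg15, Oas1a and Bst2 the cores overlap in a run that holds 3, 2 and 2 matches. Ddx60, Ifit3 and Ifit1 each have 2 matches that do not overlap, and their windows show the first in capitals. The sequence before the start of Bst2 is given whole, since this gene combined the highest level with one of the clearest falls. Its 2 matches begin 130 and 124 bases before the start.
Bst2, chr8:71537473-71537722, minus strand: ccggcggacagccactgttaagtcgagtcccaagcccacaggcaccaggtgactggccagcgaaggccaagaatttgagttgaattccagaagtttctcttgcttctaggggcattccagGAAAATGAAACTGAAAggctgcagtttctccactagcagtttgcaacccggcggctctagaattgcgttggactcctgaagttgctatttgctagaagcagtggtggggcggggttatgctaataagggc
A match is a run of letters and not a measured site.

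All 32 genes were expressed without salt, and their levels spanned a wide range. Per kilobase of exon, the highest control levels were 818 CPM per kb for Bst2 (tetherin, which holds budding virus on the cell), 566 CPM per kb for Isg15 (a ubiquitin-like modifier) and 269 CPM per kb for Ifit3 (which binds Ifit1 at viral RNA). Irf7 followed at 96.8 CPM per kb. The lowest were the helicase Ddx60 at 3.87 CPM per kb and the Schlafen gene Slfn8 at 3.48 CPM per kb. In the NaCl group Bst2 and Isg15 were again the highest, at 556 and 415 CPM per kb, and Slfn8 the lowest, at 1.93 CPM per kb.

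Against control, 29 of the 32 genes were lower in the NaCl group, 1 was higher (Mavs) and 2 did not pass the test (Rtp4 and Samhd1), in edgeR's quasi-likelihood test at an adjusted p under 0.05. Of all tested genes 17.2% were called lower and 16.9% higher, 34.1% in either direction. The median log2 fold change was -0.31 over the 32 genes, a level 19.3% lower, and 0.0029 over all tested genes. In 26 of the 32 genes all 4 NaCl libraries lay below all 4 control libraries, which held for 16.9% of all tested genes. The falls were many and small: a change of at least 1.5-fold was reached by 2 of the 32 (Slfn8 and Irf7), and by 10.3% of all tested genes.

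**Figure D1:**
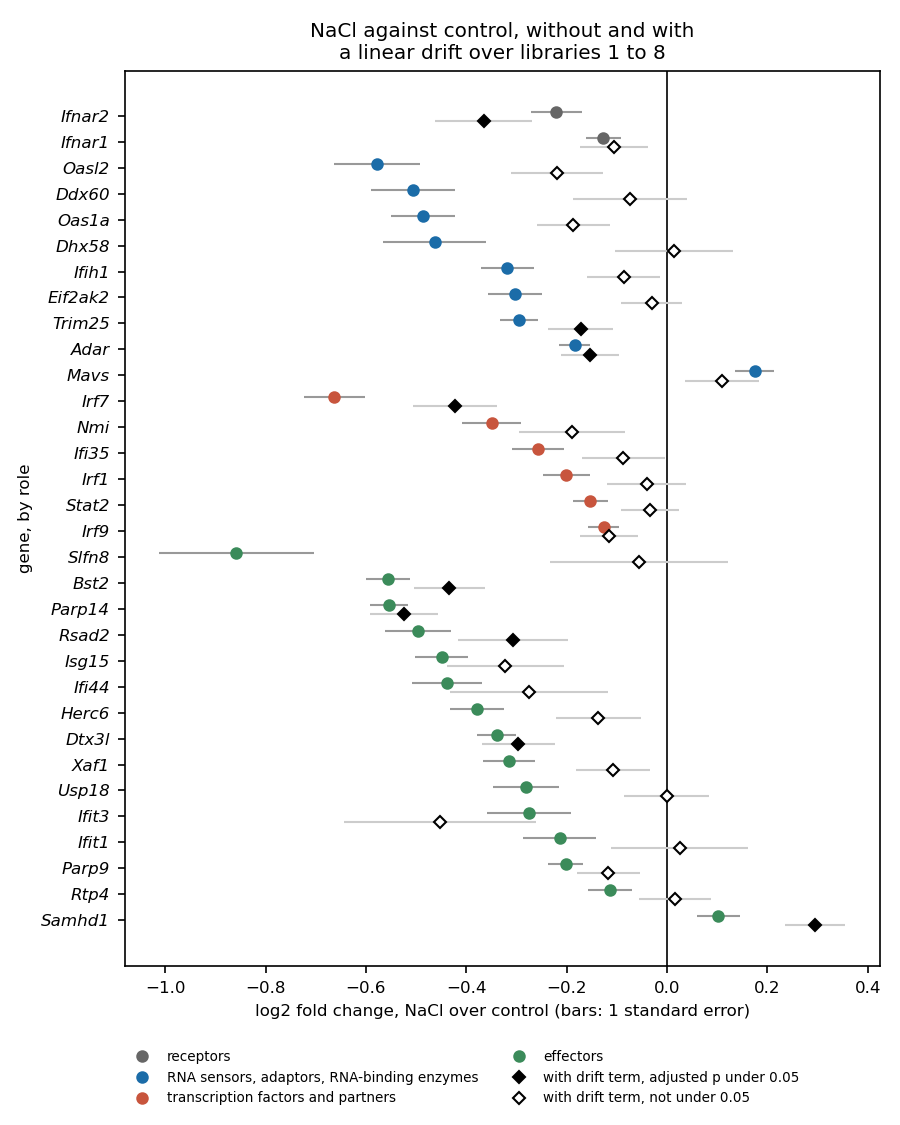
Log2 fold change of each of the 32 genes, NaCl over control, with its standard error as the bar, from the fit without a library-number term (circles, coloured by role) and from the fit that adds a linear drift over library numbers 1 to 8 (diamonds, filled where the adjusted p is under 0.05). Without the term 29 genes lay below 0 and past the threshold, while with it 8 did and the median moved from -0.31 to -0.12.

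Both receptor chains fell, by little. Ifnar1 (ENSMUSG00000022967, chr16:91485238-91507441, plus strand, GRCm38) stood at 111, 111, 116 and 109 CPM in the control libraries, in the order of their numbers, and at 103, 103, 103 and 101 CPM in the NaCl libraries. The groups did not overlap, and the fall was 8.45% (log2 -0.13, SE 0.035, adjusted p = 0.00911, edgeR). Ifnar2 (ENSMUSG00000022971, chr16:91372783-91405589, plus strand) stood at 40.1, 41.7, 41.9 and 42.4 CPM in control and at 35.04, 33.5, 35.7 and 38.3 CPM in NaCl. Its groups were also apart, with a fall of 14.2% (log2 -0.22, SE 0.051, adjusted p = 0.0031). The start sites of both genes lie 112 kb apart on chromosome 16.

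Among the 9 sensors and their partners 8 fell, with a median log2 change of -0.32, and the adaptor rose. Oasl2, of the oligoadenylate synthetase family, fell most (ENSMUSG00000029561, chr5:114896936-114912234, plus strand): it stood at 322, 305, 280 and 263 CPM in control and at 225, 179, 198 and 182 CPM in NaCl. Every NaCl library was below every control library, and within the control group replicates 1 and 2 were above 3 and 4. The means were 293 ± 26.1 CPM (SD, n = 4) and 196 ± 21.1 CPM (SD, n = 4), a log2 change of -0.58 (SE 0.086, adjusted p = 8.92e-04, edgeR).

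Ddx60, a helicase that acts with the RNA sensors (ENSMUSG00000037921, chr8:61928087-62038244, plus strand), stood at 35.7, 37.0, 31.8 and 29.99 CPM in control and at 27.5, 23.3, 23.1 and 20.9 CPM in NaCl. The groups did not overlap, and the later numbers in each group held the lower levels. Its log2 change was -0.51 (SE 0.084, adjusted p = 2.88e-04, edgeR). Ifih1, the sensor of long double-stranded RNA known as MDA5, fell by 19.8% (log2 -0.32, adjusted p = 2.88e-04). Dhx58, its regulator LGP2, fell by 27.5% (log2 -0.46, SE 0.10, adjusted p = 0.00479). Eif2ak2, the kinase PKR that stops translation on double-stranded RNA, had a log2 change of -0.30 (adjusted p = 7.60e-04).

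Oas1a, whose product makes the oligoadenylates that activate RNase L, fell by 28.6% (log2 -0.49, adjusted p = 8.22e-05, edgeR). Of its 75-base exon windows 47.6% occur unaltered in Oas1g, whose log2 change was also -0.49, so the authors' counting could have split reads between them. Trim25, a ubiquitin ligase that acts on the sensor Rigi, had a log2 change of -0.29 (adjusted p = 1.47e-05). Adar, which edits adenosine to inosine in double-stranded RNA, had one of -0.18 (adjusted p = 2.32e-04). Of Adar's exon bases 16.8% overlap Chrnb2, and whether counting used strand is not given in the sources used here.

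Mavs was the exception (ENSMUSG00000037523, chr2:131234063-131248025, plus strand). It stood at 73.3, 75.7, 78.7 and 77.7 CPM in control and at 87.2, 86.1, 82.7 and 88.7 CPM in NaCl. All NaCl libraries were above all control libraries, and the rise was 12.9% (log2 0.17, SE 0.039, adjusted p = 0.00224, edgeR). Mavs was the only one of the 32 genes whose groups were apart in this direction, against 16.5% of all tested genes.

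All 6 factors and their partners fell, with a median log2 change of -0.23. Irf7, which drives the later interferon response (ENSMUSG00000025498, chr7:141262706-141266481, minus strand), stood at 386, 382, 357 and 336 CPM in control and at 253, 213, 241 and 217 CPM in NaCl. The gap between the lowest control and the highest NaCl library was wider than the range of either group. Its log2 change of -0.66 (SE 0.060, adjusted p = 4.43e-06, edgeR) was the largest of the 6. Nmi, a partner of transcription factors (ENSMUSG00000026946, chr2:51948487-51973494, minus strand), came next, at 42.5, 43.3, 37.9 and 39.7 CPM in control and 34.3, 29.9, 33.3 and 30.8 CPM in NaCl. Its groups were apart, with a log2 change of -0.35 (SE 0.059, adjusted p = 2.33e-04).

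Ifi35, the binding partner of Nmi, had a log2 change of -0.26 (adjusted p = 0.00108, edgeR), and 16.8% of its exon bases overlap Gm11626. Irf1, a factor also induced by interferon gamma, had one of -0.20 (adjusted p = 0.00315). The subunits that relay the receptor's signal changed least: Stat2 by -0.15 (adjusted p = 0.00275) and Irf9 by -0.13 (adjusted p = 0.00437). Without control replicates 1 and 2 together, the change of Irf1 was -0.11 and no longer passed (adjusted p = 0.0664).

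Of the 15 effectors 13 fell and 2 did not pass, with a median log2 change of -0.34. Slfn8, of the Schlafen family of growth and antiviral regulators (ENSMUSG00000035208, chr11:83002158-83020810, minus strand), had the largest change of the 32 genes and the lowest level. It stood at 16.1, 16.8, 12.6 and 11.5 CPM in control and at 10.0, 8.23, 6.81 and 6.48 CPM in NaCl, from 272 to 766 counts per library. The groups did not overlap, but the highest NaCl library was close to the lowest control library, and the log2 change of -0.86 had an SE of 0.15 (adjusted p = 0.00103, edgeR). Bst2 (ENSMUSG00000046718, chr8:71534255-71537456, minus strand) stood at 766, 777, 715 and 697 CPM in control and at 515, 474, 534 and 487 CPM in NaCl. The groups were far apart against their spread, with means of 739 ± 39.0 and 502 ± 27.0 CPM (SD, n = 4 in both) and a log2 change of -0.56 (SE 0.044, adjusted p = 7.49e-08).

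Parp14, an ADP-ribosyltransferase (ENSMUSG00000034422, chr16:35832874-35871544, minus strand), was chosen for description after its values were seen, because its adjusted p of 9.16e-09 (edgeR) was the smallest of the 32. It stood at 175, 177, 175 and 170 CPM in control and at 122, 111, 123 and 118 CPM in NaCl. Each group was tight and the groups were far apart, with a log2 change of -0.55 (SE 0.038). Its neighbours on chromosome 16, the ADP-ribosyltransferase Parp9 and its ubiquitin ligase partner Dtx3l, start 681 bases apart on opposite strands, and Parp14 starts 66.9 kb from Parp9. Dtx3l had a log2 change of -0.34 (adjusted p = 4.43e-06) and Parp9 one of -0.20 (adjusted p = 2.95e-04). The 3 genes of this stretch thus changed by unequal amounts, and the differences between them were not tested.

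Isg15 stood at 434, 460, 418 and 400 CPM in control and 332, 285, 332 and 306 CPM in NaCl, a fall of 26.7% without overlap (log2 -0.45, SE 0.053, adjusted p = 2.07e-05, edgeR). Herc6, the ligase that attaches ISG15 in mouse cells, had a log2 change of -0.38 (adjusted p = 4.49e-05), and 13.7% of its exon bases overlap Gm45193. Usp18, which removes ISG15 and restrains the receptor, had one of -0.28 (adjusted p = 0.00652), with groups that overlapped.

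Rsad2 (viperin, which makes a chain-terminating nucleotide) had a log2 change of -0.50 (adjusted p = 2.83e-05, edgeR), Ifi44 one of -0.44 (adjusted p = 5.95e-04) and Xaf1, a pro-apoptotic protein, one of -0.31 (adjusted p = 2.38e-04). The IFIT genes, whose products bind foreign RNA, had the largest adjusted p-values of the 29 falls. Ifit1 stood at 240, 260, 232 and 229 CPM in control and at 241, 190, 203 and 195 CPM in NaCl, where replicate 5 lay inside the control range (log2 -0.21, adjusted p = 0.0446). Ifit3 stood at 410, 476, 496 and 493 CPM in control and at 417, 357, 349 and 425 CPM in NaCl, with control replicate 1 inside the NaCl range (log2 -0.28, adjusted p = 0.0331). Leaving out 1 library ended the call of Ifit1 in 7 of 8 cases and that of Ifit3 without control replicate 2, 3 or 4 or NaCl replicate 6. Of the exon windows of Ifit3 41.1% are shared with Ifit3b.

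Rtp4, a chaperone of membrane receptors, stood at 134, 139, 126 and 128 CPM in control and at 132, 115, 121 and 120 CPM in NaCl, with overlapping groups (log2 -0.11, adjusted p = 0.0569, edgeR). Samhd1, which degrades deoxynucleotides, stood at 193, 192, 173 and 177 CPM in control and at 209, 199, 191 and 191 CPM in NaCl (log2 0.10, adjusted p = 0.0719). The p-values of these 2 genes missed the threshold, which does not show that their levels were equal. Rtp4 was called lower without control replicate 3 or 4 or without NaCl replicate 5, and Samhd1 was called higher without control replicate 1.

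**Figure D2:**
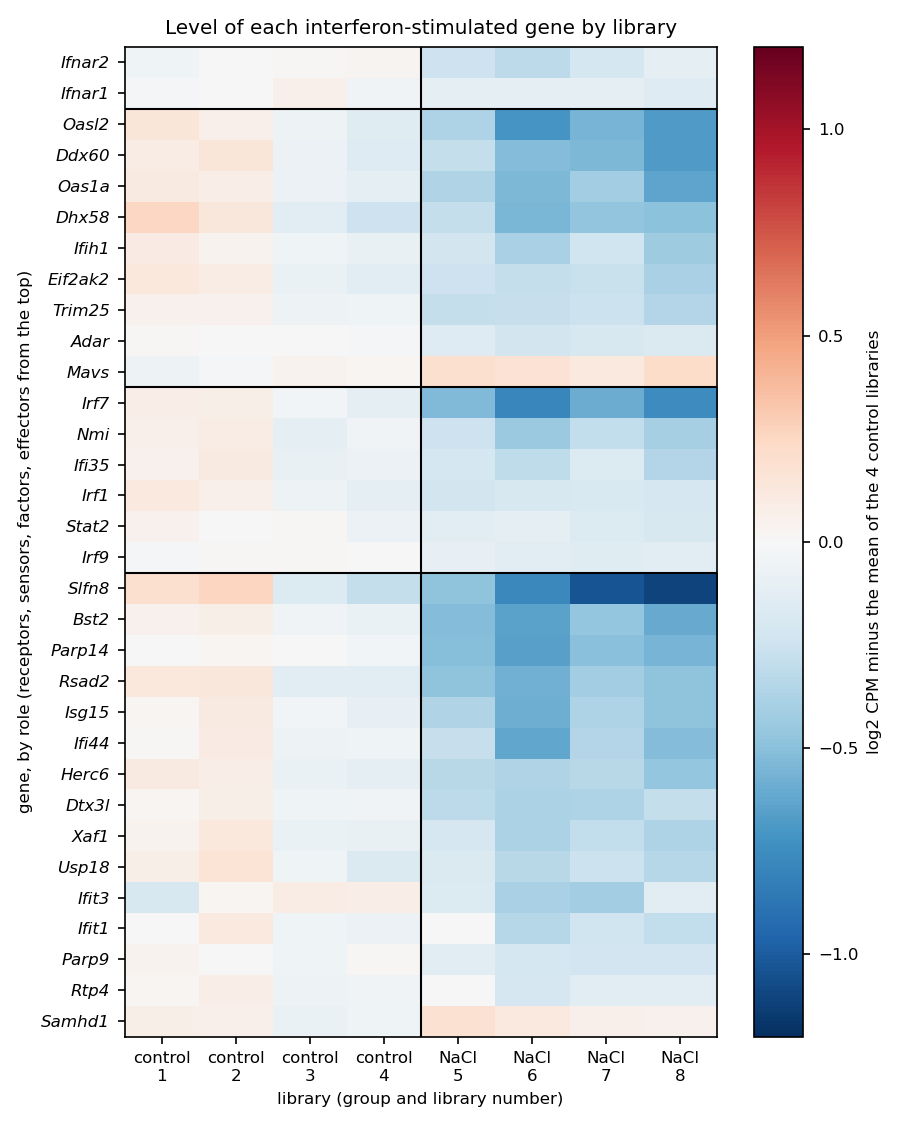
Log2 level of each of the 32 genes in each of the 8 libraries relative to the control mean of the gene, as a colour scale, with genes ordered by role. The 4 NaCl libraries are below the control mean in nearly every row, Mavs and Samhd1 are above it, and control replicates 1 and 2 are above replicates 3 and 4 in 25 of the 32 rows.

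The roles were then set side by side. The median log2 change was -0.17 for the 2 receptor chains, -0.23 for the 6 factors, -0.32 for the 9 sensors and -0.34 for the 15 effectors. The ranges overlapped, from -0.58 to 0.17 for sensors, from -0.66 to -0.13 for factors and from -0.86 to 0.10 for effectors, and the difference between roles was not tested. The 11 genes with an ISRE core were all called lower, with a median of -0.45. Of the 16 with a promoter and no core, 14 were called lower and 1 higher, with a median of -0.28. The 5 genes not in the promoter table included 4 called lower and also had a median of -0.28. Of all 32 genes 29 were called lower, and of all tested genes 17.2%. Calls among the other tested genes with a core were not counted, and the difference between genes with and without a core was not tested.

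Library number was examined next, because the 32 genes also differed inside the groups. The median log2 deviation of the 32 genes from their control mean was 0.053, 0.073, -0.057 and -0.072 in the control libraries, taken in order of number, and -0.25, -0.37, -0.28 and -0.36 in the NaCl libraries. Over all tested genes this median stayed between 0.00095 and 0.0086 in every library. TMM scaling assumes that most genes do not change and so holds that median near 0, which makes it no independent comparison. The same holds for the medians of fold change and slope over all tested genes. Control replicates 1 and 2 were both above 3 and 4 in 25 of the 32 genes, a pattern held by 24.9% of all tested genes. The exceptions were Ifnar1, Ifnar2, Mavs, Stat2, Irf9, Ifit3 and Parp9. In the NaCl group replicates 5 and 6 were both above 7 and 8 in 5 of the 32, against 20.6% of all genes, replicate 5 was the highest in 19, against 29.1%, and replicate 6 the lowest in 15, against 22.5%. By role, replicates 1 and 2 exceeded 3 and 4 in 8 of 9 sensors, 4 of 6 factors, 13 of 15 effectors and neither receptor chain.

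**Figure D3:**
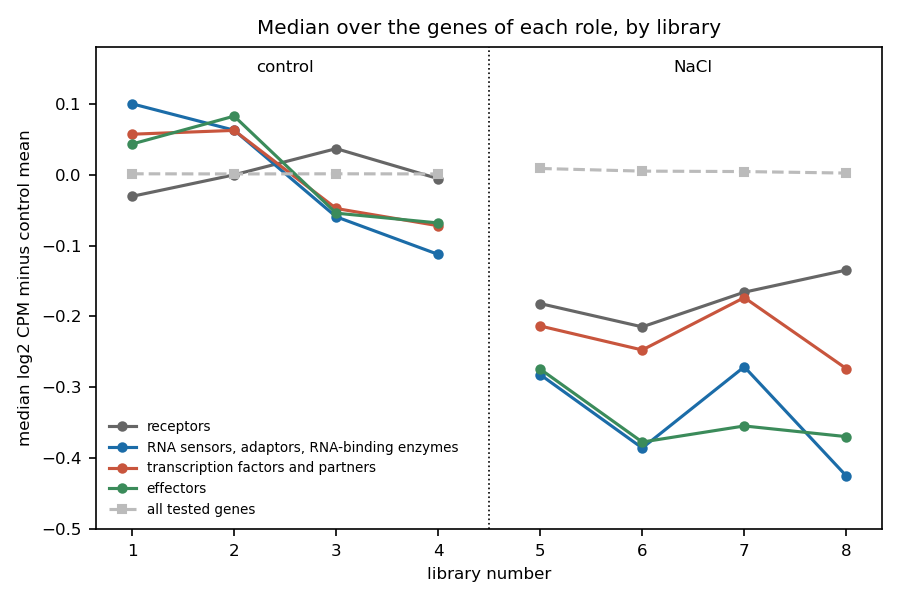
Median log2 deviation from the control mean in each library, by role and over all tested genes, against library number, with control libraries 1 to 4 and NaCl libraries 5 to 8. Sensors ran from 0.10 in control replicate 1 to -0.11 in control replicate 4 and lay between -0.27 and -0.42 in the NaCl group. All tested genes stayed at about 0, where TMM scaling holds their median.

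A slope of log2 level per unit of library number, common to both groups and fitted with the group in the model, fell in 12 of the 32 genes at an adjusted p under 0.05 (edgeR) and rose in 0. Of all tested genes 6.22% had a falling slope by this test and 6.95% a rising one. The slope was below 0 in 29 of the 32, called or not, with a median of -0.040 per number against -0.0014 over all tested genes. Sensors made up 6 of the 12 (Ifih1, Dhx58, Ddx60, Eif2ak2, Oas1a and Oasl2), the factor Irf7 was 1, and effectors were 5 (Usp18, Herc6, Xaf1, Slfn8 and Samhd1). Among receptor chains there were 0 calls, also at an unadjusted p under 0.05.

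The steepest common slope was that of Slfn8, at -0.20 per number (adjusted p = 4.27e-04, edgeR), followed by Dhx58 at -0.12 (adjusted p = 0.00167) and Ddx60 at -0.11 (adjusted p = 0.00264). Dhx58 stood at 47.5, 43.9, 36.7 and 33.8 CPM in control and at 32.8, 27.5, 28.8 and 28.5 CPM in NaCl, so that NaCl replicate 5 nearly met control replicate 4. Among the slopes close to 0 were those of Parp14, at -0.0077 (adjusted p = 0.813, edgeR), and Irf9, at -0.0025 (adjusted p = 0.939). At the other end the slope was above 0, and not called, for Ifit3 at 0.045 (adjusted p = 0.602), Ifnar2 at 0.036 (adjusted p = 0.291) and Mavs at 0.016 (adjusted p = 0.592). The count of called slopes depended on single libraries: without control replicate 1 it was 5, and without replicates 1 and 2 together it was 1, that of Slfn8. Leaving out control replicate 4 left 6, and 14 was the highest count over the 8 libraries left out in turn. Without control replicate 1 the slopes that lost their call stayed below 0. Some were smaller than before (Dhx58 from -0.12 to -0.094) and some were not (Xaf1 from -0.052 to -0.061). A lost call is thus not by itself a smaller slope. The same counts over all tested genes were not made for these refits.

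A slope for each group was also fitted, in 1 model of all 8 libraries with a shared error. It fell in 9 of the 32 genes in control, against 4.42% of all tested genes, and in 2 (Ddx60 and Slfn8) in NaCl, against 1.06%. It rose in 0 of the 32 by this test in either group, where 4.93% of all tested genes rose in control and 3.02% in NaCl. The median slope was -0.051 in control and -0.030 in NaCl, and it was below 0 in 28 and 26 of the 32. For Slfn8 it was -0.19 in control (adjusted p = 0.0172, edgeR) and -0.22 in NaCl (adjusted p = 0.0211). For Eif2ak2 it was -0.093 in control (adjusted p = 2.40e-04) and -0.041 in NaCl (adjusted p = 0.217). The NaCl slope was the smaller in size in 24 of the 32, against 54.1% of all tested genes.

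The difference between the 2 slopes itself passed in 0 of the 32 genes in edgeR's test, against 0.0927% of all tested genes, and in 4 (Dhx58, Eif2ak2, Irf1 and Rsad2) at an unadjusted p under 0.05, against 7.76% of all tested genes. For Rsad2 the slope was -0.10 in control and 0.015 in NaCl, a difference of 0.12 (SE 0.041, adjusted p = 0.412). For Irf1 it was -0.082 and 0.0058, a difference of 0.088 (SE 0.030, adjusted p = 0.391). With 4 libraries in each group, the median SE of this difference over the 32 genes was 0.031 per number, close in size to the slopes.

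**Figure D4:**
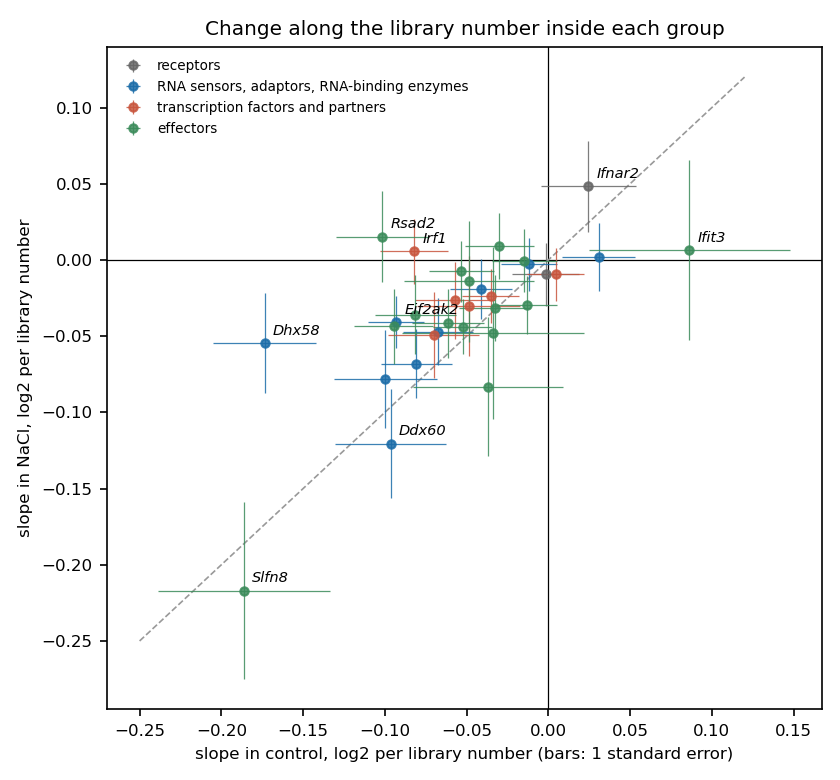
Slope of log2 level per library number for each of the 32 genes, in the control group on the x axis and in the NaCl group on the y axis, coloured by role. Most points lie below 0 on both axes (28 in control and 26 in NaCl), with Slfn8 lowest at -0.19 and -0.22.

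Since the control group holds numbers 1 to 4 and the NaCl group 5 to 8, a drift that runs on across all 8 libraries and the effect of the salt are in part told apart only by assuming that the drift is linear. With such a term, 8 of the 32 genes were called lower and 1 higher (Samhd1), against 12.6% and 11.5% of all tested genes, and the median log2 change was -0.12. The 8 were Ifnar2, Trim25, Adar, Irf7, Rsad2, Bst2, Parp14 and Dtx3l, and all 8 had also been called without the term. Trim25 (adjusted p = 0.0493, edgeR), Adar (adjusted p = 0.0477) and Rsad2 (adjusted p = 0.0429) passed only narrowly. The largest changes of the 8 were those of Parp14 at -0.52 (adjusted p = 2.08e-07, edgeR), Bst2 at -0.43 (adjusted p = 1.08e-04) and Irf7 at -0.42 (adjusted p = 0.00134). The drift in this fit is the common slope given above, carried across the distance between the groups. A gene with a steep falling slope therefore had to lose much of its fall, so these changes restate the slopes. For Slfn8 the change went from -0.86 to -0.06 (adjusted p = 0.868), for Dhx58 from -0.46 to 0.01 (adjusted p = 0.952) and for Usp18 to -0.00045 (adjusted p = 0.998). Samhd1, whose common slope was falling, went from 0.10 to 0.30 (adjusted p = 2.88e-04). Mavs was at 0.11 (adjusted p = 0.309). The change was larger with the term for Ifnar2, at -0.37 (adjusted p = 0.00466), and for Ifit3, at -0.45 (adjusted p = 0.169). The term also widened the errors, with a median SE of 0.076 against 0.052, so a lost call is not by itself a smaller change.

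With the library number centred inside each group, which removes the slopes and leaves the group means, 29 genes were called lower, against 22.0% of all tested genes, and 2 higher (Mavs and Samhd1). The 29 were not the same genes as before: Rtp4 now passed (adjusted p = 0.00898, edgeR) and Ifit3 did not (adjusted p = 0.071). At the boundary itself, NaCl replicate 5 was lower than control replicate 4 in 27 of the 32, against 48.2% of all tested genes, with a median log2 difference of -0.15. In 27 of the 32 all NaCl libraries were below control replicates 3 and 4, against 23.1% of all tested genes, the exceptions being Mavs, Usp18, Ifit1, Rtp4 and Samhd1. Among 17 tested markers of collecting duct and epithelium, 8 had a called rising slope and 0 a called falling one. Over all tested genes 6.95% rose and 6.22% fell by this test. The slope was below 0 in 3 of the 17, called or not. The part of these markers in the slopes of the interferon-stimulated genes was not tested. Across the 32 genes, the fold change and the common slope went together (Pearson's r = 0.604, Spearman's rho = 0.545, n = 32 genes from the same 8 libraries), as did the slopes of the 2 groups (r = 0.665, rho = 0.584).

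Other genes of the pathway were read from lists. Of 40 genes upstream of or within interferon signalling, 30 were analysed, and 15 were lower, 3 higher and 12 did not pass. Their median log2 change was -0.16. Over all tested genes 17.2% were called lower and 16.9% higher. The interferon genes on that list were not analysed here. Zbp1, a sensor of Z-form nucleic acid, was 50.4 ± 2.995 CPM (SD, n = 4) in control and 22.6 ± 2.16 CPM (SD, n = 4) in NaCl, a log2 change of -1.16 (SE 0.068, adjusted p = 1.44e-09, edgeR). Irf5 had a log2 change of -0.80 (adjusted p = 2.90e-05). Rigi, the sensor beside Ifih1, was lower by -0.15 on the log2 scale (adjusted p = 0.0246). The 3 that rose were Irf3, the factor that Mavs activates (log2 0.27, adjusted p = 3.01e-04), Sting1, the adaptor of DNA sensing (log2 0.17, adjusted p = 0.00454), and Pias1, an inhibitor of cytokine signalling (log2 0.14, adjusted p = 0.0253). With the drift term Irf3 was at 0.32 (adjusted p = 0.00825), while Sting1 was at 0.06 (adjusted p = 0.633) and Pias1 at 0.09 (adjusted p = 0.516), past the threshold no longer.

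Of 70 further interferon-stimulated genes 64 were analysed, and 44 were lower, 5 higher and 15 did not pass. The shares over all tested genes were 17.2% lower and 16.9% higher. The median log2 change of the 64 was -0.32, near that of the 32 genes. The largest falls were those of Ifi205 (log2 -1.68, adjusted p = 6.76e-08, edgeR), of which 16.6% of exon windows are shared with Ifi211, and Tap1, the peptide transporter of antigen presentation (log2 -1.22, SE 0.066, adjusted p = 1.11e-09). Oas3 and Oas2, larger oligoadenylate synthetases, had log2 changes of -0.93 and -0.74. The 5 higher were Ifi27 (from 214 to 297 CPM, log2 0.47, adjusted p = 3.58e-06), Ifit1bl1 (from 1.94 to 3.70 CPM), Ifit2, Ifitm1 and Uba7. The changes of Ifit2 (log2 0.14, adjusted p = 0.023) and Uba7, which activates ISG15 (log2 0.15, adjusted p = 0.00846), were opposite in sign to those of Ifit1, Ifit3 and Isg15. Rigi, Pias1, Oas2, Oas3, Ifit2, Ifitm1 and Uba7 were named after their values were seen.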

How the data were processed

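The authors deposited raw counts as whole numbers, 1 row per Ensembl identifier, for 8 libraries. The submitters' processing notes name Trim Galore 0.6.7, STAR, DESeq2 1.34.0 and mm10, without roles. The deposited normalized table (each raw count divided by 1 factor per library) was not used. Counting program and strandedness are not given in the sources used here. Genes were filtered with filterByExpr (minimum count 10), which removed 1264 genes holding 0.0191% of counts. Counts were fitted in R 4.3.3 with edgeR 4.0.16 (TMM, robust quasi-likelihood, Benjamini-Hochberg over all 14024 genes), after tests on simulated data. Slopes used the library number centred within groups, with an interaction for their difference. DESeq2 1.42.0 and limma-voom (limma 3.58.1), other scaling, filters and left-out libraries were alternatives. Gene positions, exon lengths and shared 75-base windows came from GENCODE M21 (GRCm38, the build named mm10). The members and lists were chosen with earlier results of these data known. Members described library by library were both receptor chains, the 2 largest changes of each other role and Mavs; in each pathway list the 2 lowest and 2 highest called genes were named, leaving out those whose average log2 CPM was under 1; others were chosen after their values were seen. One gene that this rule also names is not reported here.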

Additional observations from a re-analysis of the deposited data

Results flagged for a closer look

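Control replicate 1 had the largest total, 47.57 M counts, against 41.77 to 42.73 M in the other control libraries, and stood apart by Dixon's test. NaCl replicate 5 had the smallest, 35.29 M, against 41.37 to 42.39 M in the other NaCl libraries. Among the 32 genes, the level of Ifnar1 in NaCl replicate 8, 100.6 CPM, stood apart from the 102.8 to 103.1 CPM of the other NaCl libraries. These were 3 of 86 groups examined, where chance gives about 1 in 20, or 4.3.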

How the results depend on the processing

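Leaving out 1 library at a time gave 27 to 30 of the 32 genes lower, 1 to 2 higher, 5 to 14 with a falling slope, 0 to 1 with a rising slope (Ifit3) and 0 to 1 with a slope difference (Ifit3, without NaCl replicate 8). Of 256 such refits of single-gene fold changes 241 kept their side of the threshold and direction. For the slopes 225 of 256 did, and 3 changed sign. The drift term cut the 29 lower genes to 8 and turned Dhx58 (0.014), Ifit1 (0.025) and Rtp4 (0.016) to above 0. It cut the upstream list from 15 to 6 lower and from 3 to 1 higher, and the 44 lower of the other list to 21. At an adjusted p under 0.01, 27 genes were called lower, falling slopes went from 12 to 6, the upstream list to 8 lower and the other list's 5 higher to 3. Without control replicates 1 and 2 together, an alternative chosen after seeing the data, 27 were lower, 2 higher and 1 had a falling slope, and the slopes of Irf1 (0.0020), Rsad2 (0.016) and Dtx3l (0.011) were above 0. The centred number gave 2 higher. Small slopes changed sign for Ifnar1 (-0.010 to 0.0036 over the left-out libraries, above 0 without control replicate 4), Irf9 (-0.00919 to 0.0041) and Parp14 (-0.014 to 0.0018), both above 0 without NaCl replicate 5. The causes were not tested. Library totals alone gave 16 falling slopes. In that setting the 12 slopes called before all moved down by a similar amount, such as Ifih1 from -0.058 to -0.068 and Slfn8 from -0.20 to -0.21. The share over all tested genes was not counted for that setting, so the count of 16 says little about these genes in particular. No paired analysis was possible because the groups share no replicate number.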

Other observations

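Paralogues that share sequence with a listed gene could be set beside it. Oas1g fell by the same log2 amount as Oas1a, -0.49, with a slope that did not pass (adjusted p = 0.340, edgeR). Ifit3b stood at 154 ± 12.2 CPM in control and 122 ± 1.67 CPM in NaCl (SD, n = 4 each), a log2 change of -0.34 (adjusted p = 3.52e-05), with a rising common slope (adjusted p = 0.0359), whereas the slope of Ifit3 did not pass (adjusted p = 0.602).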
